A study of Mus musculus with 11 samples.

Results

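Slc26a3, Slc9a3, Car1, Car4 and Guca2b, 5 genes of salt, acid and fluid handling in the colon lining, were followed in colon tissue of naive and AOM/DSS-treated mice. They were chosen by name, and selected on the means described here, from a table of 7868 genes, which lists all 5. The table holds 1 normalized mean per gene for each group, as deposited, with no value per mouse and no error. The study calls the animals wildtype, 4 naive and 7 AOM/DSS, and describes its AOM/DSS model in female mice of named lines. Azoxymethane (AOM, a colon carcinogen) had been injected intraperitoneally once at 10 mg/kg, and dextran sodium sulfate (DSS, a polymer that injures the colon lining) was given at 1.5% in the drinking water from day 7, in 3 cycles of 5 days with 16 days of recovery after each. AOM/DSS-treated mice were sacrificed on day 70, and naive mice were kept untreated for the matching time. The table's own title calls the samples tumor and full-thickness naive colon, and the study elsewhere describes the tumors as full-thickness too. The study gives age ranges for its mice by strain or in general, and the labels give none for single samples.

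In the colon, an apical exchanger takes up chloride and releases bicarbonate, while another takes up sodium and releases protons, so that together they absorb salt with water. Carbonic anhydrases supply both by interconverting carbon dioxide and bicarbonate. Guanylin and uroguanylin are small peptides that bind guanylate cyclase C on the apical membrane and raise cyclic GMP, which favors chloride and bicarbonate secretion and restrains sodium-proton exchange. In rodents, guanylin is mainly a product of the colon, and uroguanylin of the small intestine.

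The members lie on different chromosomes of the mouse build mm10. Slc26a3, which encodes the apical chloride-bicarbonate exchanger (DRA), spans chr12:31390871-31473917 on the plus strand with up to 21 exons in GENCODE M21, and RefSeq's start site lies inside that span. Slc9a3, which encodes the apical sodium-proton exchanger NHE3, spans chr13:74121457-74169442 on the plus strand. Car1, which encodes a cytosolic carbonic anhydrase, spans chr3:14766216-14808368 on the minus strand, and Car4, which encodes a membrane-anchored one, spans chr11:84957786-84966044 on the plus strand. The uroguanylin gene Guca2b spans chr4:119656607-119658954 on the minus strand. Its neighbor Guca2a, the guanylin gene, spans chr4:119637704-119639471 on the plus strand, so that the 3′ ends of the pair face each other across 17135 bases. The processed pseudogenes Gm9359 and Gm16399 lie within the spans of Slc26a3 and Car1 and are not listed in the table.

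The 250 bases before the RefSeq start site of 4 members and of Guca2a are shown, since members with lower and with higher means can be set side by side at the sequence level. They are read 5′ to 3′ on the gene's strand from GRCm38.p6, the build of mm10, and capitals mark matches to the motifs searched.
Slc26a3 (chr12:31437969-31438218, plus strand): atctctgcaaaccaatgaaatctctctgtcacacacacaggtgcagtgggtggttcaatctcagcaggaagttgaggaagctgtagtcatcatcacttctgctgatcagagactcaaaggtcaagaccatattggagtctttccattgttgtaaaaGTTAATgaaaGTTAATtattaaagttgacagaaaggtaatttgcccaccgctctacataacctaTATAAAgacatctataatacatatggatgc
Car4 (chr11:84957504-84957753, plus strand): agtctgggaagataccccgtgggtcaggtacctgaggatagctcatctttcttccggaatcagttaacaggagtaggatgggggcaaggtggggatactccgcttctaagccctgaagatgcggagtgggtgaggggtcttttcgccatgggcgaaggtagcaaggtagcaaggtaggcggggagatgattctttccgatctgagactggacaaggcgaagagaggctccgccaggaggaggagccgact
Slc9a3 (chr13:74121163-74121412, plus strand): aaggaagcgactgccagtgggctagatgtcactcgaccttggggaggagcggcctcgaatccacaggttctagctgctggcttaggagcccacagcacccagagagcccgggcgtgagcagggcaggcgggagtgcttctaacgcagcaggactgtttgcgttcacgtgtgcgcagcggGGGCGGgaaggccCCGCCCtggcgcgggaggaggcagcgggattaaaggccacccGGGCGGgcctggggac
Guca2b (chr4:119658946-119659195, minus strand): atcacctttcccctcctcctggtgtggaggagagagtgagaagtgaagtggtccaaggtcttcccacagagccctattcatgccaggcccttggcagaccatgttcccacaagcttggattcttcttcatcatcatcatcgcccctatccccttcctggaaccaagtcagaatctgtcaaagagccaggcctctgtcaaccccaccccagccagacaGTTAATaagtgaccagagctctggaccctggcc
Guca2a (chr4:119637482-119637731, plus strand): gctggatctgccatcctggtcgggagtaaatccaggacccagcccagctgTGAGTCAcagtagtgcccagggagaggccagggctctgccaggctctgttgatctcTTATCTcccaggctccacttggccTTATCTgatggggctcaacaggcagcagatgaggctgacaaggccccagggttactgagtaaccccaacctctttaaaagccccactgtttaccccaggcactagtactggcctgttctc
The motifs searched, on both strands, were the TATA box as TATAAA, the GC box as GGGCGG, the CDX core as TTTATG, an HNF1 core as GTTAAT, an HNF4 site as CAAAGTCCA, the GATA core as AGATAA and an AP-1 site as TGANTCA. The Slc26a3 window holds 1 TATAAA and 2 GTTAAT, and the Guca2b window 1 GTTAAT. Of 32851 promoters of this length, 12.4% hold TATAAA and 6.43% hold GTTAAT. The Slc9a3 window holds 3 GGGCGG, a motif found in 32.7% of promoters. In the Guca2a window there are 2 AGATAA and 1 TGANTCA, which 9.99% and 6.75% of promoters hold. The Car4 window holds none of the 7 motifs. TTTATG and CAAAGTCCA, found in 10.8% and 0.384% of promoters, are in none of the 5 windows shown. The share of G and C was 38.8% for Slc26a3, 54.4% for Guca2b, 56.4% for Car4 and 67.6% for Slc9a3, against a median of 52.4% over all promoters.

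The chloride-bicarbonate exchanger and both carbonic anhydrases had much lower means in AOM/DSS tissue, while uroguanylin and the sodium-proton exchanger had higher ones. The authors' mean of Slc26a3 was 482 in naive and 18.1 in AOM/DSS tissue, 26.7-fold lower (log2 ratio −4.74). Car4 stood at 1019 in naive and 50.97 in AOM/DSS tissue, 19.99-fold lower (log2 ratio −4.32). For Car1 the authors' means were 1236 and 107.6, 11.5-fold lower (log2 ratio −3.52). On a log2 scale these 3 ratios lay within 1.22 of each other, which is the difference between Slc26a3 and Car1.

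Guca2b went the other way. Its mean was 6.28 in naive and 17.3 in AOM/DSS tissue, 2.75-fold higher (log2 ratio 1.46). Slc9a3 stood at 0.181 in naive and 7.73 in AOM/DSS tissue, 42.8-fold higher (log2 ratio 5.42). The size of this ratio rests on the low naive mean. With 1 added to both means the log2 ratio of Slc9a3 was 2.89, and with 5 added 1.30. NHE3 is a defining exchanger of absorptive epithelium, yet in these naive means its gene stood close to 0. No detection limit was derived and the libraries read only 3′ ends. The level of Slc9a3 thus neither bears out nor refutes the name of a colonocyte gene. The gene Exoc3, on the opposite strand, ends 45 bases beyond the annotated 3′ end of Slc9a3 and is not listed in the table. Whether reads were counted by strand is not given in the sources used here.

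**Figure D1:**
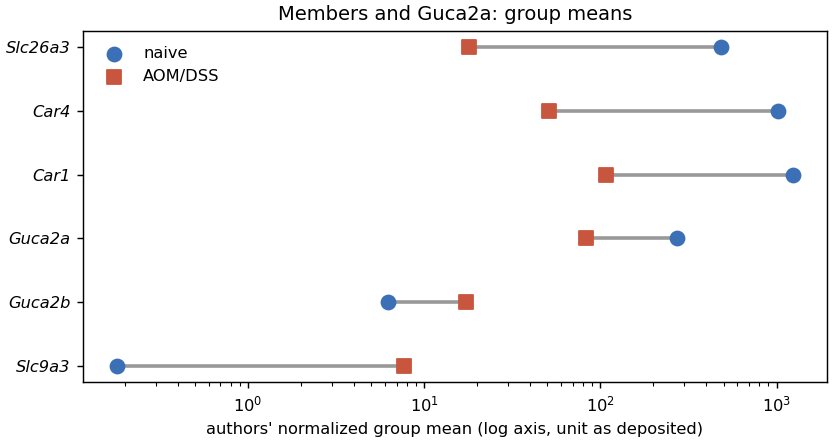
Authors' normalized group means of the 5 members and of Guca2a, on a log axis, with a circle for naive and a square for AOM/DSS tissue; each mark is 1 mean, with no error available. Slc26a3, Car4, Car1 and Guca2a lie to the left in AOM/DSS tissue, and Guca2b (6.28 to 17.3) and Slc9a3 (0.181 to 7.73) to the right.

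No SD, interval or test stands behind these ratios here, because the table gives 1 mean per group. Whether a difference exceeds the spread between mice can therefore not be stated from the means. Every listed gene carries a p-value of the authors' own comparison at or under 0.05, so that the table holds no gene outside that limit, and a gene that is not listed is not called unchanged. In bulk tissue, fewer cells of a type and less RNA per cell cannot be told apart.

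Of the 5 members, 3 were at least 2-fold lower and 2 at least 2-fold higher. Over the 7299 listed genes with both means above 0, 17.4% were at least 2-fold lower and 27.3% at least 2-fold higher. The members were selected on this contrast, and nothing is read from their count. Among 5177 of these genes with a mean of at least 10 in 1 group, the ratio of Slc26a3 ranked 2 from the bottom, that of Car4 ranked 3 and that of Car1 ranked 10, whereas 653 genes had a higher ratio than Guca2b. Slc9a3 did not reach a mean of 10. Guca2b reached a mean of 10 only in AOM/DSS tissue. Over all 7299 genes, Slc26a3 ranked 15 from the bottom, Car4 ranked 27 and Car1 ranked 80. In that wider set, 1449 genes had a higher ratio than Guca2b and 123 a higher one than Slc9a3. The median log2 ratio of these 7299 genes was 0.38, taken only over genes within the authors' p-value limit. Among genes past 2-fold, 61.0% were higher as deposited and 42.4% after that median was taken off. All 5 members kept their direction, since each log2 ratio was larger in size than that median.

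**Figure D2:**
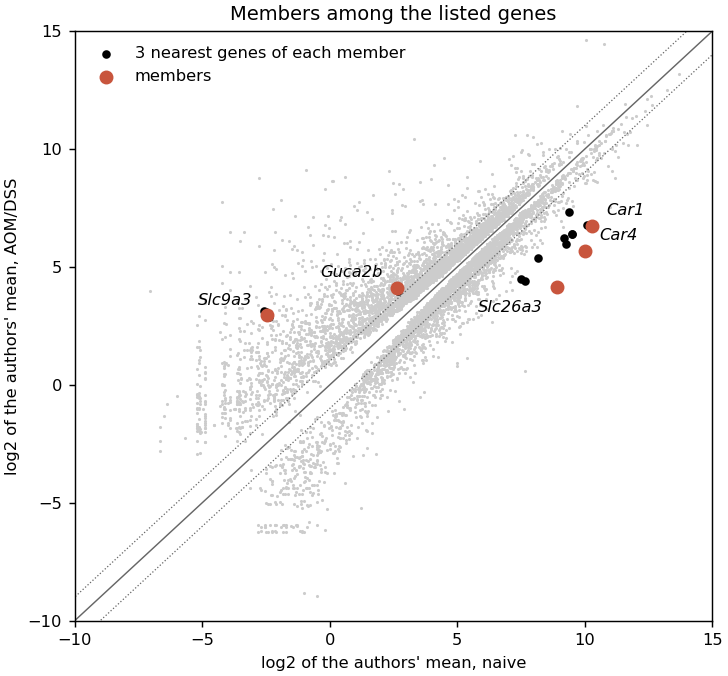
Each of 7299 listed genes with both means above 0 at its log2 naive mean (x axis) and log2 AOM/DSS mean (y axis), with equality as a solid and 2-fold as dotted lines; large points are the members and black points their 3 nearest genes. Slc26a3, Car4 and Car1 lie far below the 2-fold band, with only a few genes near them, while Guca2b lies just above it among many.

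Against uroguanylin, the lower genes differed by far more than the pair of guanylin genes did. A factor that scales all genes of a group alike, or the length of a gene, cancels in such a comparison of ratios. The log2 ratio of Guca2b exceeded that of Slc26a3 by 6.20, that of Car4 by 5.78 and that of Car1 by 4.98. Expressed as a mean of Slc26a3 per mean of Guca2b, this was 76.8 in naive and 1.05 in AOM/DSS tissue, 73.5 times apart. Car4 per Guca2b was 162 in naive and 2.95 in AOM/DSS tissue, and Car1 per Guca2b 197 and 6.23. The other exchanger, Slc9a3, stood on the same side as Guca2b, with a log2 ratio 3.96 above it, or 1.56 with 1 added to all means and 0.31 with 5 added. The log2 ratios of both exchangers lay on opposite sides of that of uroguanylin, 10.2 apart, whereas both carbonic anhydrases lay below it, 0.80 apart.

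Guanylin and uroguanylin themselves were opposite. Guca2a, which encodes the main colonic ligand, had a mean of 272 in naive and 83.0 in AOM/DSS tissue, 3.28-fold lower (log2 ratio −1.71). The log2 ratio of Guca2b lay 3.18 above it, and the mean of Guca2b per mean of Guca2a was 0.0230 in naive and 0.208 in AOM/DSS tissue. Gucy2c, which encodes their receptor guanylate cyclase C, stood at 56.0 and 37.6, 1.49-fold lower. Of 9 genes of the guanylin and cyclic GMP pathway, 3 were at least 2-fold lower, 3 at least 2-fold higher and 2 within 2-fold, and Pde10a was not listed. The median log2 ratio of this list was −0.78. Across all listed genes with both means above 0, 17.4% were at least 2-fold lower and 27.3% at least 2-fold higher. Nothing is read from the counts of this short list.

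Downstream of cyclic GMP, the kinase and phosphodiesterase genes had no common direction. Prkg2, which encodes the membrane-bound cyclic GMP-dependent kinase of epithelium, had a mean of 1.70 in naive and 40.5 in AOM/DSS tissue, 23.8-fold higher. Prkg1, whose kinase is abundant in smooth muscle, stood at 8.26 and 3.29, 2.51-fold lower. All 8 smooth muscle markers were also at least 2-fold lower in AOM/DSS tissue, and their part in the ratios given here was not tested. The chloride and bicarbonate channel gene Cftr, whose product is a target of cyclic GMP-dependent kinase activity, stood at 50.1 and 18.7, 2.67-fold lower. Of genes for enzymes that break down cyclic GMP, Pde9a was 2.07-fold higher (90.3 and 187) and Pde5a 1.97-fold lower (89.5 and 45.4).

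Beside Car1 and Car4, the carbonic anhydrase genes Car2 and Car3 were lower and Car12 was higher. Car2, which encodes the fast cytosolic enzyme, had a mean of 580 in naive and 74.2 in AOM/DSS tissue, 7.82-fold lower. Car3, a muscle and fat isoform, stood at 12.4 and 4.08, 3.03-fold lower. Car12, a membrane enzyme of many epithelia, stood at 2.43 and 10.7, 4.41-fold higher, and the mitochondrial Car5b at 7.04 and 10.4, 1.48-fold higher. Car6, the secreted salivary isoform, was listed at 0 in naive tissue and at 0.117 in AOM/DSS tissue. The other 9 of 16 genes in the family were not listed, and the median log2 ratio of those with both means above 0 was −2.28.

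Of the 4 listed relatives of Slc26a3, 2 had a lower and 2 a higher mean in AOM/DSS tissue. Only Slc26a2 among these 4 reached a mean of 10 in either group. Slc26a2, which encodes a sulfate transporter of colonocytes, had a mean of 569 in naive and 105 in AOM/DSS tissue, 5.42-fold lower. Slc26a7, an anion exchanger gene known from kidney and stomach, stood at 0.706 and 0.190, 3.73-fold lower. Slc26a4, which encodes the anion exchanger pendrin, stood at 0.157 and 1.77, 11.2-fold higher, and Slc26a9, an anion channel gene, was listed at 0 in naive tissue and at 2.61 in AOM/DSS tissue. Of 11 genes in this family, 6 were not listed, Slc26a6 among them. In the related family of SLC4 bicarbonate transporters 3 of 10 were listed. Slc4a4, which encodes the basolateral sodium-bicarbonate cotransporter, stood at 99.9 and 14.1, 7.09-fold lower. Slc4a11, known from the corneal endothelium, was 11.1-fold higher (0.976 and 10.8) and Slc4a8, a sodium-driven chloride-bicarbonate exchanger gene, 2.02-fold higher (2.48 and 4.99).

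Sodium-proton exchangers showed no common direction over all listed genes, but most of these had low means. With a mean of at least 10 in the higher group required, 1 was at least 2-fold lower (Slc9a2) and 0 at least 2-fold higher. All listed exchanger genes with a higher mean stayed under that limit in both groups, as did Slc9a5, which was lower. Slc9a2, which encodes the apical exchanger NHE2, had a mean of 84.1 in naive and 28.6 in AOM/DSS tissue, 2.94-fold lower, opposite to Slc9a3. Slc9a4, a basolateral exchanger gene known from the stomach, stood at 0.263 and 2.23, 8.47-fold higher, the endosomal exchanger gene Slc9a9 at 4.65 and 6.80, 1.46-fold higher, and the neuronal one Slc9a5 at 6.26 and 3.56, 1.76-fold lower. Slc9a7 was listed at 0 in naive tissue and at 0.335 in AOM/DSS tissue, and 3 of the 9 family genes were not listed. The scaffold genes that tether apical exchangers were lower by under 2-fold where listed. Slc9a3r1 (NHERF1) stood at 60.8 and 42.8, Pdzd3 at 21.6 and 12.4, and the membrane-cytoskeleton linker Ezr at 456 and 296, while Slc9a3r2 and Pdzk1 were not listed.

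**Figure D3:**
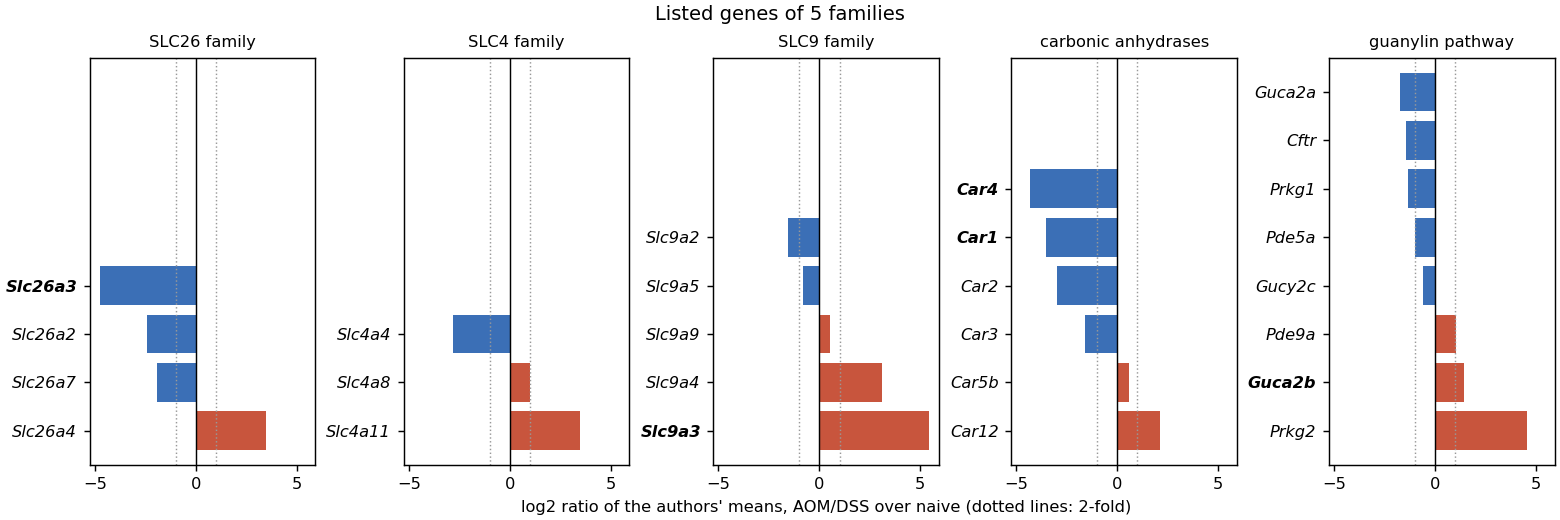
Log2 ratio of the authors' means, AOM/DSS over naive (x axis), for each listed gene with both means above 0 in the families of SLC26, SLC4 and SLC9 transporters, carbonic anhydrases and the guanylin pathway; members are in bold and dotted lines mark 2-fold. Slc26a3 (−4.74) and Car4 (−4.32) have the lowest bars of their families, Slc9a3 (5.42) the highest, and Guca2b (1.46) stands opposite Guca2a (−1.71).

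Other genes of salt and water transport were lower more often than higher, with single genes far in the other direction. For comparison, 17.4% of all listed genes with both means above 0 were at least 2-fold lower and 27.3% at least 2-fold higher. The counts below are out of whole lists, which include genes not listed. These lists were chosen with earlier results of these data known. Of 12 genes of chloride secretion and potassium recycling, 5 were at least 2-fold lower, 1 at least 2-fold higher, 2 within 2-fold and 4 not listed (median log2 ratio −1.07). Kcnk5, a potassium channel gene, stood at 55.1 in naive and 17.0 in AOM/DSS tissue, and Best2, a bicarbonate channel gene of goblet cells, at 30.1 and 12.7. Clca4b, of the calcium-activated chloride channel regulator family, stood at 3.23 and 266, 82.3-fold higher. Slc12a2, which encodes the basolateral sodium-potassium-chloride cotransporter NKCC1, stood at 113 and 168.

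For sodium absorption, 5 of 13 genes were at least 2-fold lower, 1 at least 2-fold higher, 5 within 2-fold and 2 not listed (median log2 ratio −0.97). After the median of all listed genes with both means above 0 was taken off, 8 of these 13 were at least 2-fold lower. Those farthest below were Fxyd4, a sodium pump regulator gene (140.4 in naive and 24.8 in AOM/DSS tissue), Hsd11b2, which encodes the enzyme that shields the aldosterone receptor from glucocorticoid (240.5 and 71.4), and Nr3c2, the gene of that receptor (29.9 and 9.20). The related Fxyd3 stood at 56.0 and 295, 5.27-fold higher, and Atp1b3, a sodium pump subunit gene, at 64.7 and 96.5. Of 8 water channel genes, Aqp8 was 9.57-fold lower (205 and 21.4), Aqp11 3.20-fold lower (15.3 and 4.77) and Aqp4 6.37-fold higher (5.11 and 32.5). Aqp5 was listed at 0 in naive tissue and at 0.239 in AOM/DSS tissue, and the other 4 were not listed.

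**Figure D4:**
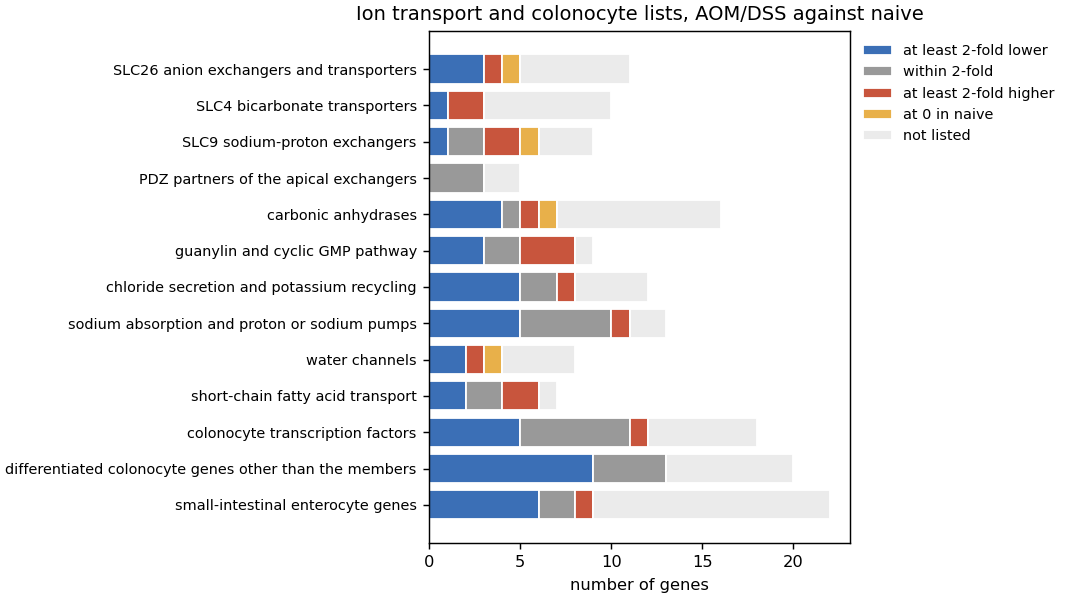
Number of genes (x axis) of each list at least 2-fold lower, within 2-fold, at least 2-fold higher, listed at 0 in naive tissue or not listed, by the ratio of the authors' means. In the list of differentiated colonocyte genes 9 of 20 are at least 2-fold lower and none is at least 2-fold higher.

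The genes with the nearest pair of means were found in the plane of both log2 means, a likeness over only 2 group means. For Slc26a3 these were Aqp8 (distance 1.26 on the log2 scale), the drug efflux pump gene Abcb1a (284 in naive and 41.1 in AOM/DSS tissue) and the lncRNA gene Gm5485 (183 and 22.8). Nearest to Car1 were Tgm3, a transglutaminase gene (1087 and 111, distance 0.19), Selenbp1 (721 and 85.2) and the LIM domain gene Fhl1 (661 and 159). Nearest to Car4 were the mucosal pentraxin gene Mptx1 (611 and 63.5, distance 0.80), Selenbp1 and its relative Car2. Slc26a3 and Car4 thus had no gene within 0.80 of them. Guca2b had closer ones in the heparan sulfate sulfotransferase gene Hs3st1 (6.03 and 18.1, distance 0.092), Rftn1 and Focad. Nearest to Slc9a3 were Trim10 (0.191 and 7.32, distance 0.11), the neutrophil chemokine receptor gene Cxcr2 (0.179 and 8.54) and Scgb2b15.

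Other genes of differentiated colonocytes, in a list chosen with earlier results of these data known, were lower alongside Slc26a3, Car1 and Car4. Among all listed genes with both means above 0, 17.4% were at least 2-fold lower and 27.3% at least 2-fold higher. Of 20 such genes, 9 were at least 2-fold lower, 4 within 2-fold and 7, Krt20 among them, not listed. The median log2 ratio of this list was −2.40, against 0.38 over all listed genes with both means above 0. Cyp2c55, a cytochrome P450 gene, stood at 199.96 in naive and 1.53 in AOM/DSS tissue, and Acsm3, of medium-chain fatty acid activation, at 41.9 and 2.24, 18.7-fold lower. Emp1 was the only listed one with a higher mean (50.3 and 86.1). Of 18 transcription factor genes of colonocytes and goblet cells, 5 were at least 2-fold lower, 1 at least 2-fold higher, 6 within 2-fold and 6 not listed (median log2 ratio −0.86). Vdr, which encodes the vitamin D receptor, was 4.21-fold lower (302 and 71.7) and Klf4, a factor of differentiating epithelium, 2.96-fold lower (623 and 210.2). Cdx2, which encodes an intestinal master regulator, stood at 3.53 and 7.35, 2.08-fold higher, but within 2-fold when 1 was added to both means or when the median was taken off. Spdef, a goblet cell factor, stood at 11.8 and 16.6.

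The cell makeup of the tissue also differed between groups, and its part in the members' ratios was not tested. Beside the marker counts below, 17.4% of all listed genes with both means above 0 were at least 2-fold lower. The share at least 2-fold higher was 27.3%. Of 12 markers of epithelium in general, 3 were lower by under 2-fold (Krt8, Krt19 and Vil1), Cldn4 was 14.4-fold higher and 8, Epcam and Cdh1 among them, were not listed, so that the defining markers of epithelium cannot be checked. The summed means of those listed were 6836 in naive and 4719 in AOM/DSS tissue. Taking the median of these 4 markers, −0.47, off the log2 ratios left Slc26a3 at −4.27, Car4 at −3.85, Car1 at −3.05 and Guca2b at 1.93. All 8 smooth muscle markers were at least 2-fold lower, with summed means of 10834 and 4428, and all 9 leukocyte markers at least 2-fold higher, with summed means of 501 and 2995. All 6 markers of stratified squamous epithelium, a lining that glandular colon lacks and that starts at the anal canal, were higher, with summed means of 5.13 and 1286. The basal keratin gene Krt5 stood at 0.266 and 233, and Krt13 at 0.148 and 440. Of 5 stem cell markers, 4 were at least 2-fold higher, Lgr5 at 4.37 and 39.2, and Olfm4 was listed at 0 in naive tissue. Goblet cell markers stood at a summed mean of 3985 and 4016, with 3 of 9 at least 2-fold higher and 2 at least 2-fold lower. Of 8 enteroendocrine markers 3 were listed, all lower, with summed means of 99.1 and 57.2, and of 6 fibroblast markers Col1a1 and Col1a2 were listed, both higher by under 2-fold, with summed means of 872 and 1353.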

How the data were processed

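RNA from colon tissue of 4 naive and 7 AOM/DSS-treated mice was sequenced as 3′ mRNA libraries (QuantSeq, Lexogen), in which each transcript yields reads from its 3′ end. Read trimming, STAR alignment to mm10, assignment to Ensembl transcripts, normalization of gene counts and the group comparison were done by the authors in Partek Flow; cutadapt is also among the tools named by the submitters. The deposited values used here are the authors' least-squares means, 1 per group, an expression signal with no SD. The sources used here do not state which normalization or scale it has. The depth of each library is unknown, and neither intervals nor detection limits were derived. The table also holds a p-value, an adjusted p and a fold for each gene from the authors' comparison. None was used, except that the deposited p-value column was checked to hold no value over 0.05. A mean under 0.001 was taken as listed at 0, which held for 500 naive and 69 AOM/DSS means, and no ratio was formed for these.

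Log2 ratios of AOM/DSS over naive means were computed without a pseudocount (Python 3.11.15, pandas 2.3.3), and genes were counted at 2-fold. No test was run, since the members were selected on these means. The counting was tested on simulated data. The members, 13 gene lists and 8 marker lists were chosen with earlier results of these data known. Named were all listed genes of the transporter, carbonic anhydrase and guanylin lists, up to 3 genes in each direction of the other lists, and the 3 genes nearest to each member; 1 gene that this rule picks is not reported here. Prose on marker lists names single genes chosen after their values were seen. Gene positions come from GENCODE M21, an annotation of mm10, and promoters from RefSeq GRCm38.p6, which matched 4 of the 5 members. Alternatives were pseudocounts of 1 and 5, folds of 1.5 and 4, and a mean of at least 10 in the higher group. Others were centring on the median of the listed genes or of epithelial markers.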

Additional observations from a re-analysis of the deposited data

How the results depend on the processing

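The direction of all 5 members held under every alternative run, but none of these could have reversed it. A constant added to both means keeps their order. The values taken off in centring, 0.38 and −0.47, are smaller in size than the log2 ratio of any member. The log2 ratio of Slc26a3 ranged from −5.11 to −4.27, of Car4 from −4.70 to −3.85, of Car1 from −3.90 to −3.05 and of Guca2b from 0.98 to 1.93. For Slc9a3 it was 2.89 with 1 added to both means and 1.30 with 5 added, against 5.42, since its naive mean is far under 1. With 5 added, Guca2b exceeded Slc26a3 by 5.38 and Car4 by 5.18, and the log2 ratio of Guca2b minus that of Slc9a3 went from −3.96 to −1.56 with 1 added and −0.31 with 5 added. Over the whole table, 1273 genes at least 2-fold lower became 2180 at a fold of 1.5, 376 at a fold of 4, 596 with a mean of at least 10 in the higher group, 767 with 1 added to both means and 2076 with median-centring. The 1993 at least 2-fold higher became 1034 at a fold of 4 and 964 with a mean of at least 10. Of the 2 members at least 2-fold higher, 1 was left at a fold of 4 (Slc9a3) and 1 with that minimum mean (Guca2b). Of 130 list counts under an alternative, 99 stayed within 1.5 times the count given. A log2 ratio was taken as moved past a factor of 1.5, because no spread between mice was available. No replicate could be left out, and depth limits could not be set, because the table gives 1 mean per group. The groups were separate mice, so no paired analysis applied.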

Other observations

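Uroguanylin is mainly a product of the small intestine in rodents, and other small-intestinal enterocyte genes were therefore listed for comparison. Of 22 such genes, 6 were at least 2-fold lower, 1 at least 2-fold higher, 2 within 2-fold and 13 not listed, Fabp1 and Apoa4 among the last (median log2 ratio −1.36). Over all listed genes with both means above 0, 17.4% were at least 2-fold lower and 27.3% at least 2-fold higher. Slc15a1, which encodes the peptide transporter PEPT1, stood at 41.5 in naive and 6.32 in AOM/DSS tissue, Rbp2, a retinol-binding protein gene, at 13.2 and 3.99, and the fructose transporter gene Slc2a5 at 1.33 and 0.292. Alpi, which encodes intestinal alkaline phosphatase, had the only higher mean at 0.0561 and 0.526, both low. Guca2b stood at 6.28 and 17.3. With 13 of 22 genes not listed, and only 2 of those at least 2-fold lower reaching a mean of 10, the list is description only. A link to the ratio of Guca2b was not tested.

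The listed genes for transport of short-chain fatty acids, the main fuel of colonocytes, were split by direction. The transporter genes among them were lower except for Slc16a3. Slc16a1, which encodes the monocarboxylate transporter MCT1, stood at 198 in naive and 47.1 in AOM/DSS tissue, 4.20-fold lower. Slc5a8, the gene of the apical sodium-coupled transporter, stood at 139 and 55.1, 2.52-fold lower, and Slc16a7 at 5.13 and 2.60. Slc16a3, which encodes the lactate exporter MCT4, stood at 15.8 and 68.8, 4.35-fold higher. Emb, a chaperone gene for some monocarboxylate transporters, stood at 7.25 and 24.2, 3.33-fold higher. Of the 7 genes in this list, 2 were at least 2-fold lower, 2 at least 2-fold higher and 2 within 2-fold. The shares over all listed genes with both means above 0 were 17.4% lower and 27.3% higher, and nothing is read from these counts.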
